A study of Mus musculus with 6 samples.

Results

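Vascular endothelial growth factors and their receptors were read out as 10 genes of the 15295 in the count table of 6 mouse bladder tumours. The genes were taken by name: the ligands Vegfa, Vegfb, Vegfc, Vegfd and Pgf, the receptor tyrosine kinases Flt1 (VEGFR-1), Kdr (VEGFR-2) and Flt4 (VEGFR-3), and the co-receptors Nrp1 and Nrp2. All 10 were found by Entrez number, and all 10 passed the filter on low counts, which kept 14498 genes.

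The tumours were grown from NA13, a murine bladder cancer line whose cells, per the labels, had been given an shRNA against Ddr2 (3 tumours) or a scrambled shRNA (3 control tumours). Both groups received IgG, and the strain is given as C57BL/6 for every sample. Ddr2 encodes a collagen-binding receptor kinase, and the study asked how its knockdown alters the tumour transcriptome. Poly-A RNA of whole tumours was sequenced as paired reads of 150 bp, so each library mixes tumour and host cells, and fewer cells of a type cannot be told apart from less RNA per cell. The labels call the tumours xenografts, while both the cells and the organism are given as mouse. They give no age of the animals and do not state whether each tumour came from its own animal, so p-values reflect the spread between these samples alone, part of which may be technical.

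VEGF-A is the main growth factor of blood vessels. It is secreted by tumour and stromal cells, is induced in hypoxia, and acts on endothelial cells mainly through VEGFR-2. VEGFR-1 binds VEGF-A, VEGF-B and placental growth factor (Pgf), signals weakly, and in its soluble form holds ligand away from VEGFR-2. VEGF-C and VEGF-D act through VEGFR-3, the receptor of lymphatic vessels and of sprouting blood vessels, and the neuropilins bind VEGFs beside the kinase receptors and semaphorins beside plexins.

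Total counts were between 15560571 and 19522985 per library. The targeted gene did not separate the groups: Ddr2 was at 4.84, 18.9 and 28.6 CPM in the tumours labelled shDdr2 1 to 3, against 6.42, 16.7 and 20.5 CPM in control 1 to 3, where CPM is the count scaled to a common library total after TMM scaling. Its fitted log2 fold change was 0.27 (95% interval -1.27 to 1.81), so every direction below is between libraries as labelled. The library labelled shDdr2 1 stood apart on the first principal component (50.1% of the variance) and control 1 on the second (22.2%). All 16 listed endothelial markers were in the count table, which holds no count below 1 for any gene, so presence there alone says little. Among them Pecam1, an adhesion protein of endothelium, was at 28.2, 66.1 and 120 CPM in the tumours labelled shDdr2 and 42.3, 82.5 and 79.4 CPM in control tumours. Of 6 lymphatic markers, Lyve1 and Pdpn were counted (0 at an unadjusted edgeR p under 0.05), and Prox1, Ccl21a, Reln and Mmrn1 were not analysed here. Lyve1, a hyaluronan receptor, was at 1.01, 4.38 and 6.20 CPM in the tumours labelled shDdr2 1 to 3, against 1.83, 3.94 and 10.2 CPM in control 1 to 3. Pdpn, which encodes podoplanin, was at 100.4, 46.8 and 56.8 CPM in the tumours labelled shDdr2, against 54.9, 57.0 and 66.1 CPM in control tumours, so that the library labelled shDdr2 1 was lowest for Lyve1 and highest for Pdpn.

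Promoter windows from RefSeq (GRCm38.p6, 250 bases before to 50 after an annotated start) were matched for all 10 genes, 12 windows in all. The ligands Vegfa and Pgf are shown because they had the lowest fitted fold changes of the ligands. Capitals mark ACGTG or GCGTG on either strand, the core of the hypoxia response element.

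Vegfa, inner start, chr17:46025114-46025413, minus strand: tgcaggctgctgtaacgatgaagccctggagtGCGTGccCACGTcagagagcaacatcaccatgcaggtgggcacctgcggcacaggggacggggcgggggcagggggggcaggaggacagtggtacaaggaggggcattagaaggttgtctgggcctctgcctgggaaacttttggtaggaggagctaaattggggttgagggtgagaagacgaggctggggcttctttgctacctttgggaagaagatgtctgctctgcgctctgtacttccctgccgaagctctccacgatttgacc

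Pgf, chr12:85177264-85177563, minus strand: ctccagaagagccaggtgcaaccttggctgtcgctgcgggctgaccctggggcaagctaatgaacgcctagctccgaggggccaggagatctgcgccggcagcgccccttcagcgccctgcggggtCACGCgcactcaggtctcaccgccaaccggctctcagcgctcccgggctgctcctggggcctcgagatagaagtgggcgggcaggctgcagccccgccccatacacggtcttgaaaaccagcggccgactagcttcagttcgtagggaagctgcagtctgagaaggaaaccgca

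The inner Vegfa window lies within the gene and held 2 matches, which begin 218 and 211 bases before the inner start. The letters around both matches can be read as codons without a stop, so both may lie in protein-coding sequence. They are matches of letters, and a role in hypoxia was not tested. The window at the upstream Vegfa start held 0 matches. Sequence further upstream was not searched, so this does not show that Vegfa lacks a hypoxia response element there. The Pgf window shown held 1 match, 124 bases before the start. A second Pgf window, at chr12:85175933-85176232, held 0 matches. The core was found in 7 of the 12 windows and in 43.8% of all 32851 windows of this length. The letters GGGCGG, a GC box, were found on either strand in 10 of the 12 windows, against 35.7% of all windows, and Vegfd was the 1 gene with no such window. The Vegfd window also had the lowest GC content of the 12, at 42.0%, where the median of all windows was 52.7%. The other member windows were at 59.3% to 75.3%, all above that median. The part of GC content in the GGGCGG matches was not tested.

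The 3 receptor kinases are shown, each lowest in the library labelled shDdr2 1 and highest in that labelled shDdr2 3. The co-receptor Nrp1 had the same order, and its window is not shown. Capitals mark GGAA on either strand, the core letters bound by ETS factors, a family with a role in endothelial genes.

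Kdr, chr5:75978406-75978705, minus strand: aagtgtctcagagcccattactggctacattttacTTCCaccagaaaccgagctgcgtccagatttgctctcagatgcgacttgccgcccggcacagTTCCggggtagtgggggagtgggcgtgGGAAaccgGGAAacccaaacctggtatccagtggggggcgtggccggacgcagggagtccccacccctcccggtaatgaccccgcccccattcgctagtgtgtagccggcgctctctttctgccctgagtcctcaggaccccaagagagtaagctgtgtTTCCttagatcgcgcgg

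Flt1, chr5:147725962-147726261, minus strand: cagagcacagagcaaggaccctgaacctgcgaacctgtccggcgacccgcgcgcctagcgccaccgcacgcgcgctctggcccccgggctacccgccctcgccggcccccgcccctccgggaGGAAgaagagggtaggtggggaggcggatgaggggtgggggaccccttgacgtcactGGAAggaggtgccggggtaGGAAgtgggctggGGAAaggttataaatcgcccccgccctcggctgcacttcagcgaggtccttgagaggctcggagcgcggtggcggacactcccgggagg

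Flt4, chr11:49609429-49609728, plus strand: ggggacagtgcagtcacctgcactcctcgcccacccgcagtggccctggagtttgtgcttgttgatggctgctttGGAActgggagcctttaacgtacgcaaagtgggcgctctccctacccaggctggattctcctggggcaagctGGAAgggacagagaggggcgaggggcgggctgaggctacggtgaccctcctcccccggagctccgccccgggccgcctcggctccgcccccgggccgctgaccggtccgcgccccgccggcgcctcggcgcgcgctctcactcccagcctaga

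Kdr held 5 such matches, Flt1 4 and Flt4 2, and the Nrp1 window held 5, where the median of all windows was 3. Since 96.0% of all windows hold the letters, their presence does not set these genes apart.

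Vegfa was by far the most abundant member. Per kilobase of the union of its exons, it was at 59.6, 53.8 and 115 CPM per kilobase in the tumours labelled shDdr2 1 to 3, against 125, 104 and 114 CPM per kilobase in control 1 to 3. Vegfb came next, at a mean of 16.0 CPM per kilobase over the 6 libraries, and the ranges of the 2 genes did not overlap. Vegfa alone made up 70.2%, 66.9% and 79.6% of the summed ligand level per kilobase in the tumours labelled shDdr2, against 86.6%, 75.4% and 78.0% in control tumours.

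Below Vegfb the order was Nrp2 (9.37), Vegfd (5.53), Pgf (4.98), Nrp1 (3.76), Kdr (2.59), Flt1 (2.32), Vegfc (1.29) and Flt4 (0.811), each a mean level in CPM per kilobase over the 6 libraries. Neighbours from Vegfb downwards had overlapping ranges. Vegfb exceeded Nrp2, Nrp1 exceeded Kdr and Flt1 exceeded Vegfc in 6 of 6 libraries, while Vegfd exceeded Pgf in 3 and Kdr exceeded Flt1 in 3. With the longest annotated transcript as the length, Nrp1 ranked 4 and Vegfd 6 of the 10, and Flt1 and Kdr exchanged places at 7 and 8. Counts are per gene, so the soluble and the membrane form of Flt1, and the splice forms of Vegfa, were not separated.

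**Figure D1:**
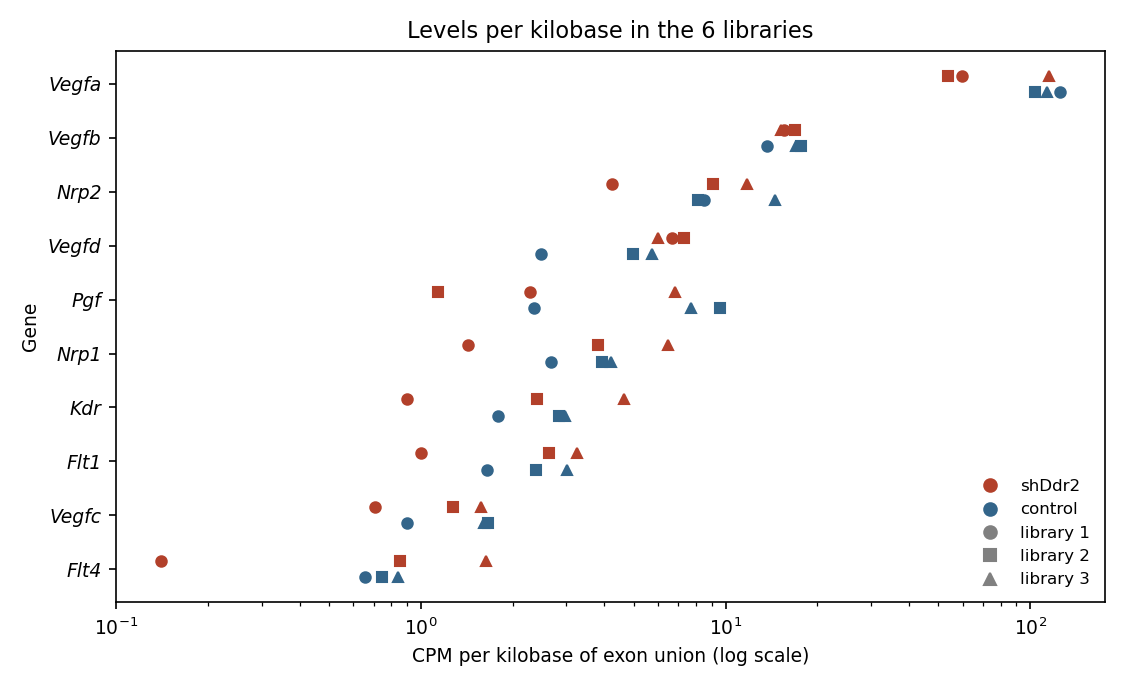
Level of each gene in CPM per kilobase of exon union (log axis), 1 point per library, with tumours labelled shDdr2 drawn above control tumours and marker shape giving the library number. Vegfa lies above 50 in every library, and Flt4 in the library labelled shDdr2 1 (0.140) is the lowest value.

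Vegfa, the principal endothelial growth factor (Entrez 22339, chromosome 17, 46016993 to 46032369, minus strand; all gene positions are those of GENCODE M21, GRCm38), was at 255, 231 and 492 CPM in the tumours labelled shDdr2 1 to 3, against 536, 445 and 488 CPM in control 1 to 3. The libraries labelled shDdr2 1 and 2 lay below every control library and the third lay among them, so the groups overlapped. The means were 326 ± 144 and 490 ± 45.4 CPM (SD, n = 3 each), a log2 fold change of -0.59 (SE 0.32, 95% interval -1.35 to 0.18) that did not pass the edgeR test (unadjusted p = 0.112, adjusted p = 1.00). Without the library labelled shDdr2 3, the log2 fold change was -1.01 (edgeR unadjusted p = 0.00544, adjusted p = 0.988), and without control 1 and the library labelled shDdr2 1 together it was -0.37.

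Pgf, which encodes placental growth factor (Entrez 18654, chromosome 12, 85166635 to 85177790, minus strand), varied most of the ligands. It was at 6.64, 3.31 and 19.8 CPM in the tumours labelled shDdr2 1 to 3, against 6.85, 27.8 and 22.4 CPM in control 1 to 3. Low values occurred in both groups, in the libraries labelled shDdr2 1 and 2 and in control 1, and the highest library held 8.39 times the lowest. Between libraries of the same number, Pgf differed by -0.043, -3.02 and -0.18 on the log2 scale (shDdr2 minus control), so that 1 pair carried most of the difference. The means of 9.92 ± 8.72 and 19.0 ± 10.9 CPM (SD, n = 3 each) gave a log2 fold change of -0.94 (SE 0.73, 95% interval -2.65 to 0.78, edgeR unadjusted p = 0.239, adjusted p = 1.00). Leaving out the library labelled shDdr2 3 gave -1.94 (edgeR unadjusted p = 0.0205, adjusted p = 0.988), and leaving out that labelled shDdr2 2 gave -0.52. In the run without the library labelled shDdr2 3, 2 of the 10 members, Vegfa and Pgf, had an unadjusted p under 0.05, where 2.70% of all genes did.

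Vegfd, a ligand of VEGFR-3 (Entrez 14205, chromosome X, 164373378 to 164402650, plus strand), was the only member whose groups did not overlap. Its levels were 16.1, 17.6 and 14.4 CPM in the tumours labelled shDdr2 1 to 3, against 5.99, 11.9 and 13.8 CPM in control 1 to 3. The closest values, 14.4 CPM in the library labelled shDdr2 3 and 13.8 CPM in control 3, were near each other, and control 1 was the lowest. The groups did not overlap in 4.32% of all genes (2.21% with the tumours labelled shDdr2 higher), and in 1 of the 10 members. Between libraries of the same number, Vegfd differed by 1.41, 0.56 and 0.059 on the log2 scale (shDdr2 minus control). The means of 16.0 ± 1.61 and 10.6 ± 4.09 CPM (SD, n = 3 each) gave a log2 fold change of 0.60 (SE 0.35, 95% interval -0.21 to 1.41, edgeR unadjusted p = 0.124, adjusted p = 1.00), and 0.33 without control 1.

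Markers of admixed tissue differed between the same libraries. All 8 skeletal muscle genes listed had higher fitted values in the tumours labelled shDdr2 (edgeR called 0, 7 had an unadjusted p under 0.05, and DESeq2 called 3 and gave no p for Myh4). Of all genes tested, 1.44% had such an edgeR p and DESeq2 called 0.276%. In 7 of the 8, every tumour labelled shDdr2 lay above every control tumour, where 2.21% of all genes did. The 8 genes summed to 856, 2861 and 390 CPM in the tumours labelled shDdr2 1 to 3, against 8.30, 59.4 and 105 CPM in control 1 to 3. The 4 counted erythrocyte genes summed to 62.6, 25.1 and 46.6 CPM in the tumours labelled shDdr2, against 596 CPM in control 1 and 56.0 and 46.1 CPM in control 2 and 3 (3 of the 4 had an unadjusted edgeR p under 0.05, and DESeq2 gave no p for any of them). Their part in the Vegfd values was not tested.

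Vegfb, a ligand of VEGFR-1 (Entrez 22340, chromosome 19, 6982473 to 6987651, minus strand), was the steadiest member, at 25.0, 27.2 and 24.3 CPM in the tumours labelled shDdr2 1 to 3 and 21.9, 28.4 and 27.3 CPM in control 1 to 3. Its range over the 6 libraries, 0.37 on the log2 scale, was wider than that of 6.53% of genes tested. The log2 fold change was -0.018 (SE 0.20, 95% interval -0.49 to 0.46, edgeR adjusted p = 1.00).

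Vegfc, the main lymphangiogenic ligand (Entrez 22341, chromosome 8, 54077606 to 54187096, plus strand), was low, with 24, 64 and 67 counts in the libraries labelled shDdr2 1 to 3 and 41, 68 and 63 counts in control 1 to 3. This corresponded to 1.73, 3.12 and 3.84 CPM in the tumours labelled shDdr2, against 2.21, 4.06 and 3.96 CPM in control tumours. In each group the library numbered 1 was the lowest, and the groups overlapped. The log2 fold change was -0.23 (SE 0.44, 95% interval -1.26 to 0.80, edgeR adjusted p = 1.00).

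**Figure D2:**
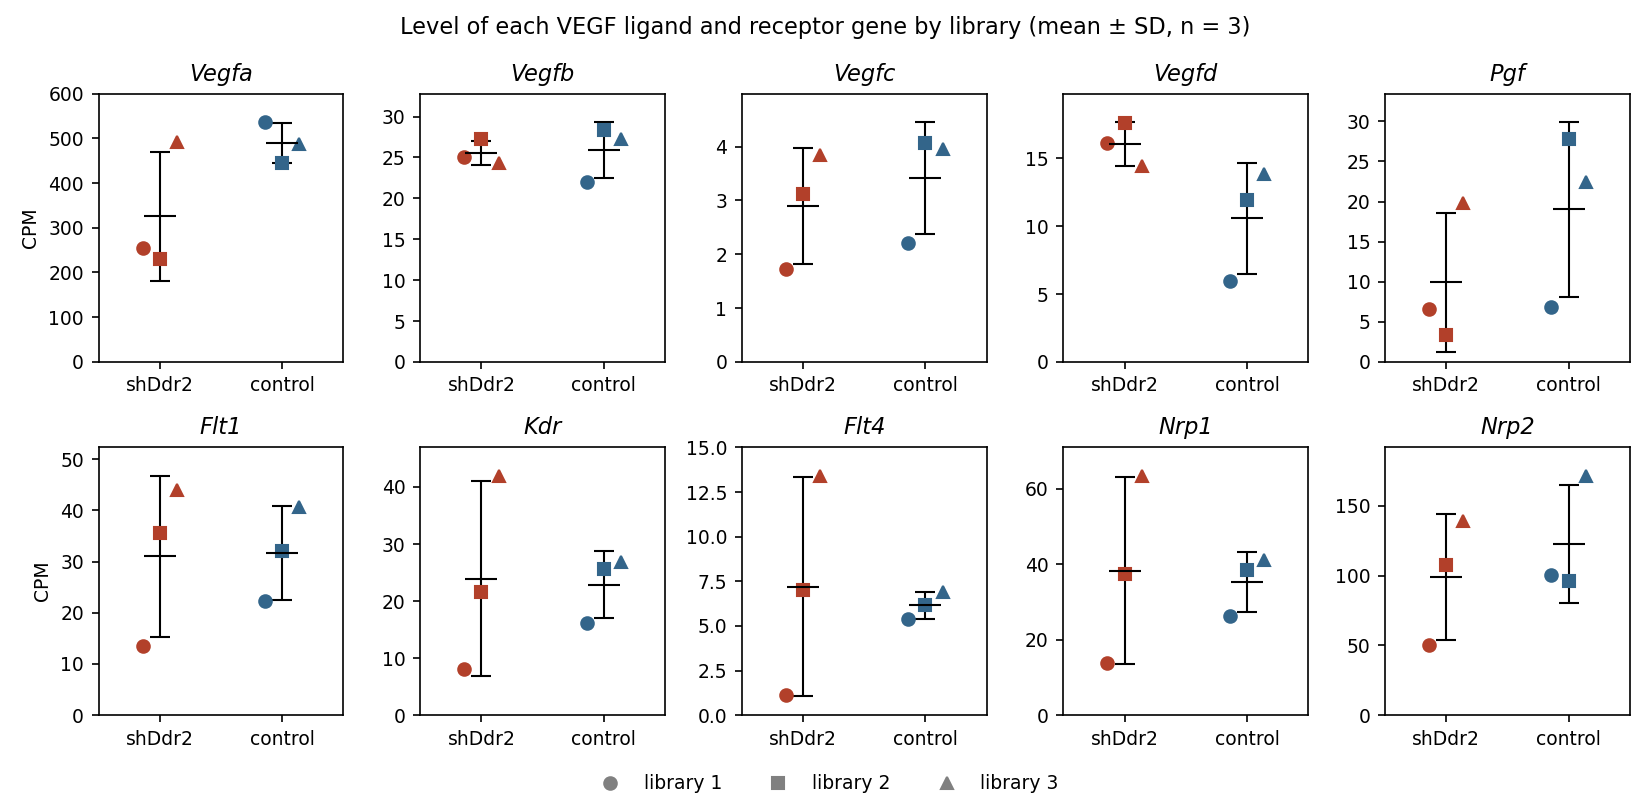
CPM of each gene by library, tumours labelled shDdr2 left and control tumours right, with bars for mean ± SD of 3 libraries and marker shape for library number. Vegfd is the only panel without overlap (lowest value labelled shDdr2 14.4, highest control 13.8 CPM), and the 5 receptors are lowest in the library labelled shDdr2 1.

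Receptor levels spread more widely among the tumours labelled shDdr2 than the group means differed. All 5 were lowest in the library labelled shDdr2 1, as were 34.6% of all genes tested. Of the 5, 4 (all but Nrp2) were also highest in the library labelled shDdr2 3. Of all genes tested, 14.6% had this combination of lowest and highest library.

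Kdr, the main signalling receptor of VEGF-A on endothelium (Entrez 16542, chromosome 5, 75932827 to 75978458, minus strand), was at 8.16, 21.7 and 42.0 CPM in the tumours labelled shDdr2 1 to 3, against 16.2, 25.6 and 26.9 CPM in control 1 to 3. The control values lay inside the span of the tumours labelled shDdr2. The means were 23.9 ± 17.0 and 22.9 ± 5.81 CPM (SD, n = 3 each), a log2 fold change of 0.067 (SE 0.54, 95% interval -1.20 to 1.33, edgeR unadjusted p = 0.905, adjusted p = 1.00). Leaving out the library labelled shDdr2 1 gave 0.47, and leaving out that labelled shDdr2 3 gave -0.61.

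Flt1, which encodes VEGFR-1 (Entrez 14254, chromosome 5, 147561604 to 147726011, minus strand), was at 13.5, 35.6 and 44.1 CPM in the tumours labelled shDdr2 1 to 3, against 22.3, 32.1 and 40.7 CPM in control 1 to 3. Here too the control values lay within the other group's span. The log2 fold change was -0.028 (SE 0.44, 95% interval -1.06 to 1.01, edgeR adjusted p = 1.00), with 0.33 when the library labelled shDdr2 1 was left out and -0.37 when that labelled shDdr2 3 was. The log2 ratio of Flt1 to Kdr was 0.50 ± 0.37 in the tumours labelled shDdr2 and 0.46 ± 0.13 in control tumours (SD, n = 3 each), and an exact two-sided permutation test of it gave p = 0.9, where 0.1 is the smallest p that 3 against 3 can reach.

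Flt4, which encodes VEGFR-3 (Entrez 14257, chromosome 11, 49609263 to 49652739, plus strand), had the widest range of the 10. It stood at 1.16, 7.01 and 13.4 CPM in the tumours labelled shDdr2 1 to 3, against 5.39, 6.15 and 6.91 CPM in control 1 to 3. The 16 counts in the library labelled shDdr2 1 (exact Poisson 95% interval 9.15 to 26.0, counting error only) lay below the 100 to 110 counts of the control libraries. The highest library held 11.6 times the lowest, and 97.8% of genes tested had a smaller range. The log2 fold change was 0.23 (SE 0.72, 95% interval -1.45 to 1.92, edgeR adjusted p = 1.00), with 0.73 when the library labelled shDdr2 1 was left out and -0.57 when that labelled shDdr2 3 was.

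Nrp1, the co-receptor of VEGF-A and class 3 semaphorins on blood vessels (Entrez 18186, chromosome 8, 128358604 to 128503363, plus strand), was at 13.9, 37.4 and 63.5 CPM in the tumours labelled shDdr2 1 to 3, against 26.3, 38.5 and 41.1 CPM in control 1 to 3. The log2 fold change was 0.12 (SE 0.50, 95% interval -1.05 to 1.29, edgeR adjusted p = 1.00). As for Kdr, the sign turned with the library left out, from 0.51 without that labelled shDdr2 1 to -0.46 without that labelled shDdr2 3.

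Nrp2, a co-receptor of VEGF-C and of semaphorins (Entrez 18187, chromosome 1, 62703285 to 62818695, plus strand), had the highest level of the receptors per kilobase. In CPM it was at 50.2, 108 and 139 CPM in the tumours labelled shDdr2 1 to 3, against 101, 96.4 and 172 CPM in control 1 to 3. Control 3 was highest and the library labelled shDdr2 1 lowest. The log2 fold change was -0.31 (SE 0.41, 95% interval -1.26 to 0.64, edgeR adjusted p = 1.00), and 0.0044 when the library labelled shDdr2 1 was left out. In the annotation an antisense gene, Gm29083, and a same-strand gene of unsettled type, Gm37121, overlap Nrp2, and the strand setting of the counting is not given in the sources used here, so its count may hold reads of these genes.

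Across the family, edgeR called 0 of the 10 genes, and 0 of 10 had an unadjusted p under 0.05, where 0.00% of all genes were called and 1.44% had such a p. DESeq2 on the same counts called 0 of the 10 members and 0.276% of all genes, with a lowest unadjusted member p of 0.0999, that of Vegfa. The fitted fold change was below 0 for 6 members and 42.9% of all genes. Between same-numbered libraries, Pgf and Vegfc were lower in the tumour labelled shDdr2 in 3 of 3 pairs (2 of the 10 members, where 8.13% of all genes were), and Vegfd was higher in 3 of 3 (1 of the 10, where 8.55% of all genes were). With the pair as a block their edgeR log2 fold changes were -1.02, -0.25 and 0.67, and 0 of the 10 members were called. Vegfa was at -0.67 in that blocked fit (edgeR unadjusted p = 0.0507). The members' median log2 fold change was -0.023, and that of all genes tested was 0.040. Without the library labelled shDdr2 1 the share of all genes at an unadjusted p under 0.05 was 6.95%, and without it and control 1 it was 7.08%, with 0 of the 10 members among them in both runs. The 95% intervals include differences of more than 1 on the log2 scale, in one direction or the other, for every member but Vegfb, so the absence of a call does not show equal levels.

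**Figure D3:**
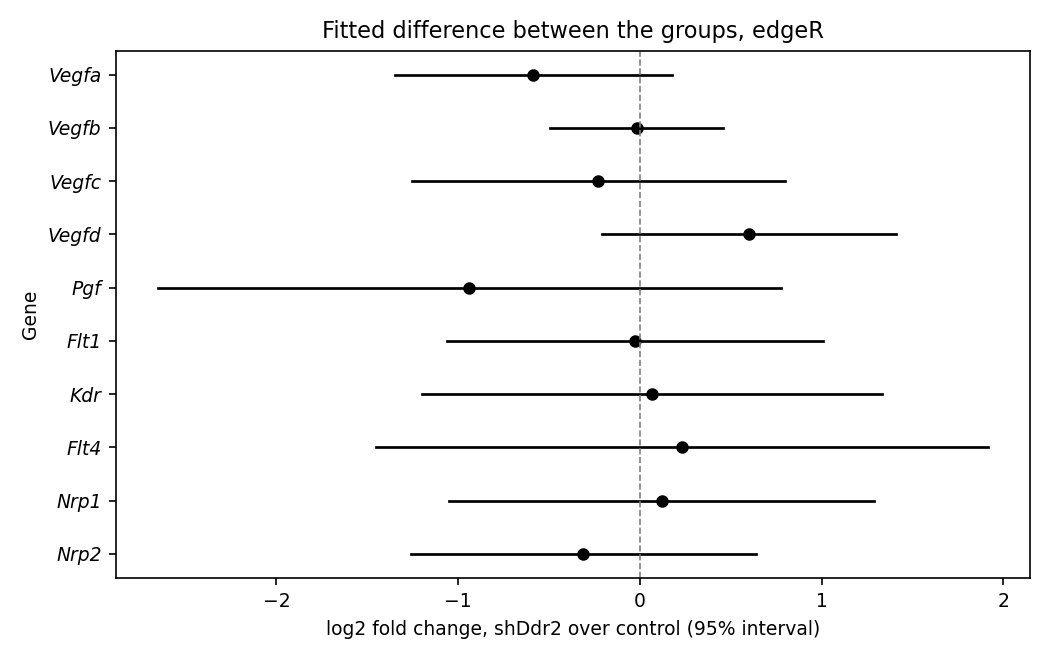
Log2 fold change of tumours labelled shDdr2 over control tumours from edgeR, with 95% intervals, 1 line per gene. All 10 intervals include 0, the narrowest is that of Vegfb (-0.49 to 0.46), and the widest is that of Pgf (-2.65 to 0.78).

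The receptor levels were set beside markers of blood vessel endothelium. The mean of the 16 endothelial genes was 3.01, 3.92 and 4.86 log2 CPM in the tumours labelled shDdr2 1 to 3, against 3.49, 4.25 and 4.16 log2 CPM in control 1 to 3. Fitted fold changes were above 0 for 12 and below 0 for 4, with 0 at an unadjusted edgeR p under 0.05. These genes summed to 219 to 655 CPM in the tumours labelled shDdr2 and 269 to 450 CPM in control tumours. Of the 16, 12 were lowest in the library labelled shDdr2 1 and highest in that labelled shDdr2 3, as were 4 of the 5 receptors.

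Kdr minus the endothelial mean was 0.04, 0.53 and 0.54 on the log2 scale in the tumours labelled shDdr2 1 to 3, against 0.54, 0.44 and 0.59 in control 1 to 3. The Kdr level itself spanned 2.35 on the log2 scale and this difference 0.55. The group difference was -0.15 (exact two-sided permutation test, p = 0.6, smallest possible 0.1). For Nrp1, the span was 2.18 for the level and 0.51 relative to the endothelial mean, for Flt1 1.70 and 0.63, for Nrp2 1.77 and 0.99, and for Flt4 3.41 and 1.63. The mean of the fibroblast genes was likewise lowest in the library labelled shDdr2 1 (6.17 log2 CPM) and highest in that labelled shDdr2 3 (8.56 log2 CPM). Receptors were not set against that mean, so a narrower span is not shown to be particular to endothelial genes.

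Markers of other cell types were compared over the same libraries. All 8 fibroblast genes listed were highest in the library labelled shDdr2 3, as were 20.2% of all genes tested. Of the 8, 7 were also lowest in the library labelled shDdr2 1. The fibroblast genes summed to 1623, 4263 and 11161 CPM in the tumours labelled shDdr2 1 to 3, against 2720, 4978 and 5880 CPM in control 1 to 3. Of 10 pericyte and smooth muscle genes, 6 were lowest in the library labelled shDdr2 1 and highest in that labelled shDdr2 3, and their sums were 427 to 924 CPM in the tumours labelled shDdr2 and 402 to 638 CPM in control tumours. Macrophage genes summed to 210 to 521 CPM in the tumours labelled shDdr2 and 212 to 539 CPM in control tumours, with 2 of 8 in that order. Genes of differentiated keratinocytes were highest in sum in the library labelled shDdr2 1, at 3326, 768 and 635 CPM in the tumours labelled shDdr2 1 to 3 and 666 to 963 CPM in control tumours. Tumour epithelium genes summed to 10952 to 12297 CPM in the tumours labelled shDdr2 and 11020 to 12969 CPM in control tumours, led by the basal keratin Krt5. Of these 8 genes, 2 had fitted fold changes above 0 and 6 below, with 0 at an unadjusted edgeR p under 0.05. In 3 of them, Epcam, Krt8 and Krt18, every tumour labelled shDdr2 lay below every control tumour, where 2.11% of all genes did. The luminal keratin Krt8 was at 0.289, 11.8 and 10.04 CPM in the tumours labelled shDdr2 1 to 3, against 14.6, 30.3 and 14.1 CPM in control 1 to 3. In edgeR, 0 fibroblast or macrophage genes, 1 of 10 pericyte and smooth muscle genes and 1 of 7 keratinocyte genes had an unadjusted p under 0.05. Of the pericyte and smooth muscle list this was Des, the muscle intermediate filament desmin, also called by DESeq2 (adjusted p = 0.0131). Des was at 99.0, 336 and 78.0 CPM in the tumours labelled shDdr2 1 to 3, against 6.20, 13.3 and 39.5 CPM in control 1 to 3. Like the skeletal muscle sum, it was highest in the library labelled shDdr2 2, and the part of skeletal muscle in its level was not tested. Fitted fold changes of the 10 genes in its list were above 0 for 6 and below 0 for 4 (median 0.046). The part of these cell types in the receptor levels was not tested.

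**Figure D4:**
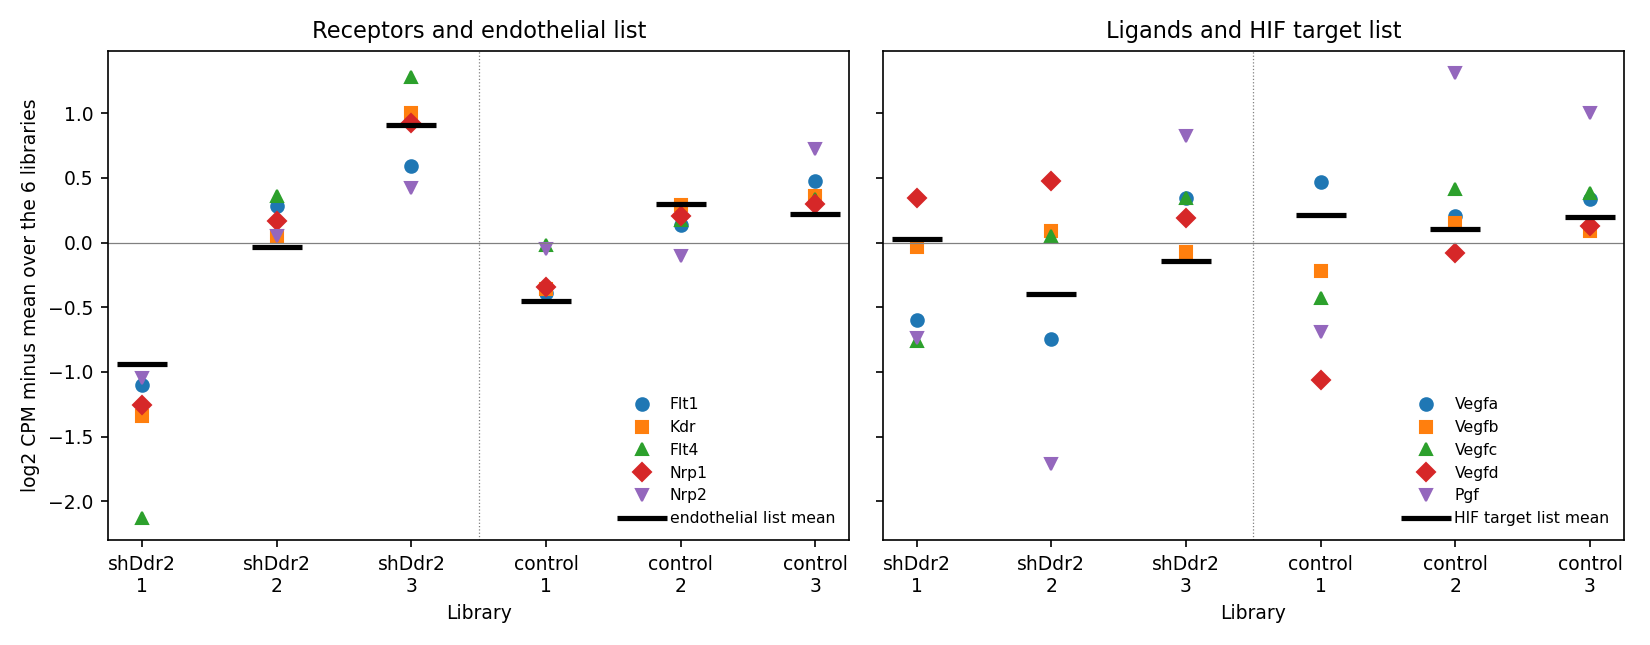
Log2 CPM minus the gene's mean over the 6 libraries for the 5 receptors with the endothelial list mean (left panel) and the 5 ligands with the mean of the HIF target list (right panel), tumours labelled shDdr2 left of the dotted line. The receptors and the endothelial list are lowest in the library labelled shDdr2 1, while the ligands spread around the HIF target list.

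Vegfa was set beside other genes induced by the hypoxia-inducible factors (HIF). The mean of 20 HIF target genes was 7.43, 7.01 and 7.26 log2 CPM in the tumours labelled shDdr2 1 to 3, against 7.61, 7.51 and 7.60 log2 CPM in control 1 to 3. In sum, which the most abundant genes dominate, they were highest in the library labelled shDdr2 1. The sums were 10808, 6895 and 7265 CPM in the tumours labelled shDdr2 1 to 3, against 9720, 8952 and 9210 CPM in control 1 to 3. Of the 20, edgeR called 0, 1 had an unadjusted p under 0.05, 17 had a fitted fold change below 0, and in 7 every tumour labelled shDdr2 lay below every control tumour, where 2.11% of all genes did. The median log2 fold change was -0.28. Adm, which encodes the vasodilator adrenomedullin, was at 25.7, 51.0 and 63.5 CPM in the tumours labelled shDdr2, against 76.5, 92.3 and 76.6 CPM in control tumours (edgeR unadjusted p = 0.044, adjusted p = 1.00).

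In 5 of the 6 libraries Vegfa stood in the same order as the HIF target mean, lowest in the library labelled shDdr2 2 and highest in control 1, and the library labelled shDdr2 3 departed from it. Relative to that mean, Vegfa stood at 0.57, 0.84 and 1.69 on the log2 scale in the tumours labelled shDdr2 1 to 3, against 1.45, 1.29 and 1.33 in control 1 to 3. The library labelled shDdr2 3 was the highest of the 6 and the other 2 of its group were the lowest. The group difference of -0.33 was not separable from the spread (exact two-sided permutation test, p = 0.4, smallest possible 0.1). Of 7 counted HIF pathway regulators, 0 had an unadjusted edgeR p under 0.05, and Egln1, an oxygen-sensing hydroxylase that marks HIF for destruction, was at 182 ± 20.0 CPM in the tumours labelled shDdr2 and 222 ± 30.7 CPM in control tumours (SD, n = 3 each).

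Genes downstream of the receptors showed no call. Among 33 genes of VEGF receptor signalling, 14 had fitted fold changes above 0 and 19 below, with a median of -0.0095, and 0 had an unadjusted edgeR p under 0.05. Shb, an adaptor that binds VEGFR-2, was at 20.4 ± 3.13 CPM in the tumours labelled shDdr2 and 26.0 ± 3.62 CPM in control tumours (SD, n = 3 each), and was the 1 gene of the 33 without overlap, where 4.32% of all genes had none. Pxn, the focal adhesion scaffold paxillin, was at 139 ± 26.4 and 181 ± 31.8 CPM in the same order (SD, n = 3 each).

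Among 15 genes induced by VEGF or typical of sprouting tip cells, 9 had fitted fold changes above 0 and 6 below, with a median of 0.041 and 0 at an unadjusted edgeR p under 0.05. Aplnr, the apelin receptor of sprouting endothelium, was at 6.35, 12.4 and 36.4 CPM in the tumours labelled shDdr2 1 to 3, against 8.95, 8.30 and 6.41 CPM in control 1 to 3, so that 1 library carried the difference in means. Of 7 angiopoietin and Tie genes, 5 had fitted fold changes above 0 and 2 below (median 0.33), with 0 at an unadjusted edgeR p under 0.05. Tek, the angiopoietin receptor, was at 1.88, 5.94 and 9.70 CPM in the tumours labelled shDdr2 and 3.72, 2.45 and 3.08 CPM in control tumours.

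Semaphorins and plexins, angiogenic ligands of other families and inhibitors of angiogenesis were equally without calls. The 12 listed class 3 semaphorins and plexins split into 5 above and 7 below 0 (median -0.016). Sema3e, a repulsive cue of vessels, was at 1.56 ± 1.35 CPM in the tumours labelled shDdr2 and 2.69 ± 0.289 CPM in control tumours. The 9 counted angiogenic ligands of other families split into 4 and 5 (median -0.055). Among them Hgf, which encodes hepatocyte growth factor, was at 5.92, 6.57 and 6.26 CPM in the tumours labelled shDdr2 and 3.72, 3.28 and 4.78 CPM in control tumours (edgeR unadjusted p = 0.0628, adjusted p = 1.00). It was the 1 gene of the 9 without overlap, where 2.21% of all genes were higher without overlap. The 9 inhibitors of angiogenesis split into 5 and 4 (median 0.056), and Thbs1, which encodes thrombospondin 1, was at 187, 374 and 810 CPM in the tumours labelled shDdr2, against 291, 384 and 413 CPM in control tumours. None of these 3 lists held a gene at an unadjusted edgeR p under 0.05 (0 genes in each).

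Of 9 proteases and cofactors that process or release VEGFs, 4 had fitted fold changes above 0 and 5 below (median -0.072). Plau, the urokinase that activates plasminogen, was at 119, 103 and 115 CPM in the tumours labelled shDdr2 and 143, 157 and 156 CPM in control tumours. It was the 1 gene of the 9 without overlap, where 2.11% of all genes were lower without overlap. It was also the 1 gene of this list with a low edgeR p (unadjusted p = 0.0394, adjusted p = 1.00). Mmp9, a gelatinase, was at 78.5, 27.2 and 164 CPM in the tumours labelled shDdr2 and 94.5, 112 and 257 CPM in control tumours, with overlap. DESeq2 called 0 genes in each of these pathway lists at an adjusted p under 0.05.

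The genes nearest to 3 members in pattern were found by the root mean square difference of log2 CPM deviations over the 6 libraries, among 13014 other genes. Nearest to Kdr were Sparcl1, a matricellular protein (0.0587), Loxl3, a lysyl oxidase (0.0736), and Adamts4, an aggrecanase (0.0779). Sparcl1 was at 31.3, 86.2 and 168 CPM in the tumours labelled shDdr2 1 to 3, against 60.0, 106 and 110 CPM in control 1 to 3. Nearest to Vegfa were Pim1, a serine/threonine kinase (0.0792), Oasl1 (0.099) and Mxd1, a MAX-binding repressor (0.105). Pim1 was at 36.0, 34.6 and 67.3 CPM in the tumours labelled shDdr2, against 73.9, 57.2 and 62.3 CPM in control tumours. Nearest to Flt4 were Disp1 (0.171), Ltbp2, a latent TGF-beta binding protein (0.179), and Slco2b1, an organic anion transporter (0.181). The 6 libraries differed in total count and in the marker sums of several cell types given above. The part of tissue composition in these patterns was not tested, and likeness here is a description only.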

How the data were processed

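RNA of 6 tumours was measured, 3 labelled shDdr2 and 3 control. The authors deposited whole-number counts per Entrez gene for 15295 genes, none below 1 in any library, and log2 values. Per the submitters' processing notes, Bowtie2 2.1.0, RSEM 1.2.31 and limma were used with GRCm38.p5, with no roles stated, so the counts may be rounded estimates. Undoing the log2 step (log2 of count over 1 factor per library, plus 1) returned the deposited counts within 0.05 except for 17 values, the highest in the table, which are written to fewer digits. The annotation, the strand setting and the handling of shared reads are unknown: not given in the sources used here.

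Symbols came from a RefSeq table by Entrez number (14876 matched, 419 not). Counts were filtered with filterByExpr, scaled by TMM and tested with edgeR 4.0.16 (quasi-likelihood F test, robust, R 4.3.3) on all 6 libraries. P-values are two-sided and Benjamini-Hochberg adjusted over 14498 genes, threshold 0.05. SE is the fold change over the root of F. The common coefficient of variation was 35.3%, and the median 95% interval reached 0.76 to either side on the log2 scale. List means use log2 CPM with a prior count of 2. Lengths are GENCODE M21 exon unions. DESeq2 1.42.0, limma 3.58.1 and other alternatives were run.

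The members and lists were chosen with earlier results of these data known. Named genes are the members, Ddr2, list genes among the 3 smallest p of their list or, for cell types, the highest levels (which of these to print was chosen with their values known), and 3 nearest genes each of Vegfa, Kdr and Flt4. Replicate numbers come from sample titles. Deviations from group means correlated between same-numbered libraries across genes (r = 0.299, 0.267 and 0.253, all above the 0.1 set for pairing), although control 3 with the library labelled shDdr2 2 gave 0.254. Within groups, chi-square per degree of freedom was 26.1 to 242, so no 2 libraries agreed within counting noise.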

Additional observations from a re-analysis of the deposited data

How the results depend on the processing

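The number of members called was 0 under every alternative run, and the number of all genes called was 0 except with DESeq2 (40). Negative values for Vegfa and Pgf and positive values for Vegfd held under all 14 alternatives. With 1 library left out at a time, log2 fold changes ran from -1.01 to -0.39 for Vegfa, -1.94 to -0.52 for Pgf, 0.33 to 0.84 for Vegfd, -0.11 to 0.052 for Vegfb, -0.48 to 0.030 for Vegfc, -0.37 to 0.33 for Flt1, -0.61 to 0.47 for Kdr, -0.57 to 0.73 for Flt4, -0.46 to 0.51 for Nrp1 and -0.64 to 0.0081 for Nrp2. The last 7 thus changed sign. In those runs the difference in the Flt1 to Kdr ratio ran from -0.069 to 0.26, that of Kdr relative to endothelial genes from -0.24 to 0.014, and that of Vegfa relative to HIF targets from -0.65 to -0.094. Kdr, Flt4 and Nrp1 also changed sign with limma on voom weights (-0.14, -0.27 and -0.074), with limma on the deposited log2 values (-0.20, -0.35 and -0.11) and with the replicate block (-0.18, -0.23 and -0.10), which changed no call. Flt1 was at 0.12 without control 1 and the library labelled shDdr2 1 together. The cause of these changes was not tested. The exact sign flips of the replicate block cannot go below p = 0.25. Counting error weighs most on the lowest member counts, 16 for Flt4 and 24 for Vegfc, both in the library labelled shDdr2 1.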
